A study of Homo sapiens with 6 samples.

Results

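The genes described here encode MET and RON, a pair of related receptor tyrosine kinases, with their ligands and the proteases and protease inhibitors that set how much active ligand is made. They were chosen by symbol, and all 9 (MET, MST1R, HGF, MST1, HGFAC, ST14, HPN, SPINT1 and SPINT2) had a row among the 28265 genes of the count table. The cells were Huh7, an established human hepatocellular carcinoma line, and all of them had been transduced with lentiviral particles 48 h earlier. The particles carried an LHX2 expression vector in 3 libraries and a control vector in the other 3 (LHX2 is a LIM-homeodomain transcription factor). A label also calls the control cells parental, although they too received a vector. Neither the promoter of the LHX2 vector nor the origin of the replicates (separate cultures or not) is stated, and all p-values therefore refer to differences between libraries that may be technical.

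HGF and macrophage-stimulating protein (MSP, the product of MST1) are secreted as inactive single chains that resemble plasminogen. A cut by a serine protease turns them into the ligands of MET and RON, respectively. HGF activator (HGFAC), matriptase (ST14) and hepsin (HPN) can make this cut, and the Kunitz-type inhibitors HAI-1 (SPINT1) and HAI-2 (SPINT2) block these proteases. In liver, MET is found on hepatocytes, MSP and HGF activator are hepatocyte products, and HGF comes mainly from stellate and endothelial cells.

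Total counts ran from 30029313 to 39653681 per library. LHX2 had 1 to 2 counts in the control libraries and 2427 to 3126 in the LHX2 libraries, as labelled. All 15 hepatocyte markers on the list had enough counts to be tested (3 were called higher, 5 lower and 7 not), with AFP at a mean of 24742 CPM (counts scaled to a common library size with TMM factors) in the controls. Of 8 cholangiocyte markers 4 were tested, with 2 called higher (KRT19 and EPCAM, log2 fold change 0.53 and 0.38) and 2 not. All 8 summed to 354 to 375 CPM in the controls and 368 to 395 CPM with LHX2. Among the 4 with too few counts, CFTR had 15, 9 and 24 counts in the control and 3, 4 and 7 in the LHX2 libraries. Counts of AQP1 were 0, 3 and 1 against 1, 2 and 6. Those of MUC1 were 5, 2 and 6 against 3, 4 and 1. Both genes overlapped between the groups, and KRT7 was at 0 in every library. Of 9 macrophage and leukocyte markers, with sums of 471 to 500 and 612 to 678 CPM, 3 were tested and 2 called higher. LYZ made up most of these sums (472 and 635 CPM on average), and CD68 was the other one called higher (8.35 and 16.5 CPM). PTPRC had 1, 1 and 0 counts in the control and 0, 3 and 0 in the LHX2 libraries. In that list 3 were at 0 throughout. In the edgeR quasi-likelihood test 32.5% of 14533 genes tested passed a Benjamini-Hochberg adjusted p of 0.05, 16.6% higher and 15.8% lower with LHX2, and the median log2 fold change over all of them was 0.01. Levels between genes are given below as CPM per kb of the longest annotated transcript.

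Transcripts of the receptor MET and of the inhibitor SPINT1 rose with LHX2, and those of the ligand gene MST1 fell. The MST1 call was lost in 5 of 15 other fits. HGF was at the limit of detection, and the proteases HGFAC, ST14 and HPN and the inhibitor SPINT2 had few reads. Of the 9 genes 6 had enough counts to be tested, and 2 were called higher and 1 lower, beside the shares of 16.6% and 15.8% among all tested genes. The TMM-scaled values of 5 of the 6 did not overlap between the groups, which held for 44.9% of all tested genes. With library totals alone the groups of MST1 and HPN overlapped, and the share over all tested genes was not computed on that scale. MST1R reached the cutoff of the count filter in 2 control and 3 LHX2 libraries, and HPN in 3 control and 2 LHX2 libraries. Both thus lay near the cutoff, and the group in which each was higher counted more toward its being tested. In bulk RNA, fewer expressing cells and less RNA per cell cannot be told apart.

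**Figure D1:**
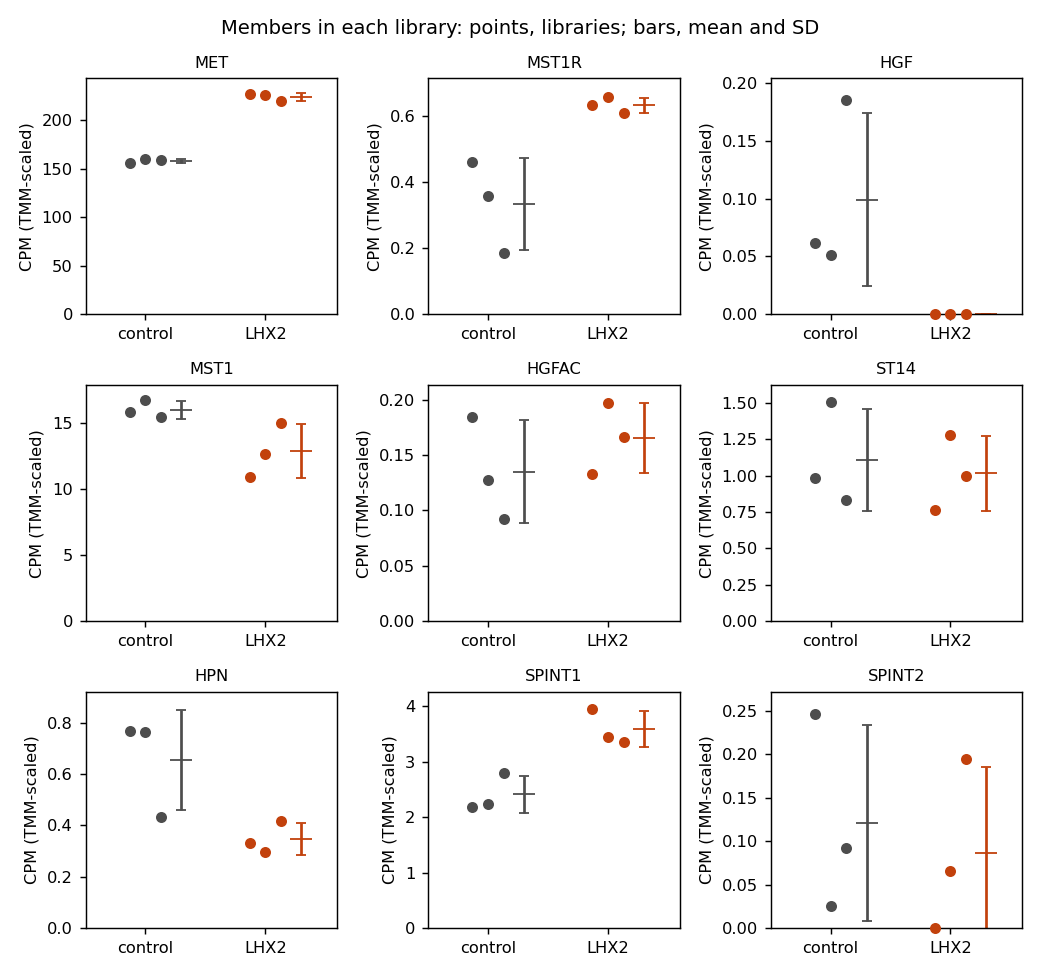
TMM-scaled CPM of the 9 genes (vertical axes, linear, from 0, different in each panel) in the control and LHX2 libraries. Each point is a library and the bars give the mean and SD of 3 libraries, ending at 0 where the SD reaches below it. The MET points lie at 156 to 160.0 CPM in the controls and at 219 to 226 CPM with LHX2, and HGF has no read in any LHX2 library.

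For the 2 members that rose and for HGF, the 250 bases before the annotated start are shown in lower case, since the comparison concerns a transcription factor. They are RefSeq windows of GRCh38.p14 at chr7:116671946-116672195 on the plus strand for MET, chr15:40843798-40844047 on the plus strand for the upstream one of the SPINT1 windows, and chr7:81770048-81770297 on the minus strand for HGF. Capitals mark the GC box GGGCGG on either strand, the letters bound by SP1-type factors.
MET: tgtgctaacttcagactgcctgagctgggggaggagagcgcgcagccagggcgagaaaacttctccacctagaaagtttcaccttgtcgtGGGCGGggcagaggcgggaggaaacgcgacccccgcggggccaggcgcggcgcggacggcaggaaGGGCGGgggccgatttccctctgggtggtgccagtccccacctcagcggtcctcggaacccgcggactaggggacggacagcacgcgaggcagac
SPINT1: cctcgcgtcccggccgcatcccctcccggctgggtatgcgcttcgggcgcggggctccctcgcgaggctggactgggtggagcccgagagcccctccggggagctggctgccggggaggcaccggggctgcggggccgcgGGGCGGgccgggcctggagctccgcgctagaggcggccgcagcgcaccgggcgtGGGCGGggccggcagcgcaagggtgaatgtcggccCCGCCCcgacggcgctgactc
HGF: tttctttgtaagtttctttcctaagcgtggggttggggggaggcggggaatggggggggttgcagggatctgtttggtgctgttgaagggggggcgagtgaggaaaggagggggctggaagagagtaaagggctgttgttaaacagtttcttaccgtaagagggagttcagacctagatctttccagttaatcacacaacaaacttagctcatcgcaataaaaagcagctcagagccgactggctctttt
The MET window holds GC boxes that begin 160 and 95 bases before the start. The SPINT1 window holds 3, at 110, 56 and 21 bases, and the HGF window none. Among the windows not shown GGGCGG occurred 4 times for MST1R, 2 times each for MST1 and HPN, and not for HGFAC or in the other SPINT1 window. GC content was 68.4% for MET, 80.4% for SPINT1 and 50% for HGF, against a median of 58.0% over 35116 windows of the same length, and the windows held 24, 35 and 6 CpG dinucleotides against a median of 11. The window of MST1, which fell, had 70.8% GC and 30 CpG. MST1R had 70.8% and 20, HPN 70.4% and 10, HGFAC 63.6% and 7, and the other SPINT1 window 70.4% and 22. The windows of HPN (35041471 to 35041720) and HGFAC (3441718 to 3441967) lie after the gene starts given below. The same holds for the other SPINT1 window (40844227 to 40844476). MST1R and HPN were not called and HGFAC had too few counts to be tested, and a link between these values and the direction of change was not tested. GGGCGG occurred in 42.6% of all windows. TAATTA, the core letters bound by LIM-homeodomain factors, occurred in 4.35% of all windows and TGANTCA, the AP-1 site, in 6.57%, each searched on both strands. Neither was found in the 8 windows of the 7 members that the table holds, which says only that these letters are not in these stretches.

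MET (Entrez 4233, chromosome 7, 116672196 to 116798377 of GRCh38, plus strand) encodes the HGF receptor. Its counts, in the order of the replicate numbers, were 5080, 6270 and 5156 in the control libraries and 6801, 6880 and 7908 in the LHX2 libraries. These correspond to 156, 160.0 and 159 CPM in the controls and 226, 226 and 219 CPM with LHX2, so the groups lie far apart relative to their own spread. The means were 158 ± 1.98 and 224 ± 3.85 CPM (SD, n = 3), a log2 fold change of 0.50 ± 0.04 (SE, edgeR adjusted p = 9.2e-08). Among the 2415 genes called higher, 66.2% had a smaller log2 fold change than MET. Over 15 other fits, including every single library left out, the MET log2 fold change stayed between 0.44 and 0.53 and the call held.

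MST1R (Entrez 4486, chromosome 3, 49887002 to 49903873, minus strand) encodes RON, the MSP receptor. It had 15, 14 and 6 counts in the control and 19, 20 and 22 in the LHX2 libraries. Every LHX2 library lay above every control library, at 0.611 to 0.656 against 0.185 to 0.461 CPM. The log2 fold change of 0.91 ± 0.34 (SE) did not pass the edgeR test (adjusted p = 0.055). It passed without control replicate 1 (1.18, adjusted p = 0.045) and with limma-voom (0.97, adjusted p = 0.041), and was 0.64 without control replicate 3 (adjusted p = 0.21). Scaled by library totals, the summed counts gave a ratio of 1.92 (exact binomial 95% interval 1.25 to 2.997, for counting error only).

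The 2 receptor genes lay far apart in level. Per kb, MET had a mean of 23.9 ± 0.299 CPM without and 33.7 ± 0.580 CPM with LHX2 (SD, n = 3), above 81.8% and 87.3% of the tested genes. MST1R was at 0.0714 ± 0.0298 and 0.135 ± 0.00490 CPM per kb. MET thus had 239 to 607 times the level of MST1R in the control libraries and 243 to 254 times in the LHX2 libraries, ranges that overlap. On the same per-kb scale EGFR, a receptor kinase known to associate with MET, was at 29.3 and 32.5, ERBB3 at 25.4 and 27.4 and ERBB2 at 8.49 and 11.4 in the control and LHX2 groups.

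HGF (Entrez 3082, chromosome 7, 81699010 to 81770047, minus strand) encodes the MET ligand. Its counts were 2, 2 and 6 in the control libraries and 0, 0 and 0 in the LHX2 libraries. Scaled by library totals, the 10 control reads against none gave a ratio of 0, with an exact binomial interval of 0 to 0.491 for counting error only. With a floor of 3 counts over the LHX2 group HGF was 3.03-fold lower, a value that takes the 10 control reads as exact. Of the 10 reads 6 came from control replicate 3, and without that library the value with the floor was 1.76-fold, from 4 control reads. No interval was computed without that library, so 1.76-fold is not a lower bound on the difference. HGF had too few counts for the filter. In a fit without the filter, where 23.7% of 20885 genes were called (12.1% higher, 11.6% lower), it passed (edgeR adjusted p = 0.032), and the call was lost when any library other than control replicate 1 was left out (adjusted p = 0.071 to 0.20). Markers of stellate cells and fibroblasts, the usual source of HGF, summed to 40.9 to 44.8 CPM in the controls and 73.0 to 79.1 CPM with LHX2. COL1A2, which codes for a collagen I chain, made up most of this difference (9.26 and 36.8 CPM on average). The other markers called higher were LUM (9.01 and 12.6 CPM) and PDGFRA (17.6 and 20.8 CPM), RGS5 was not called, and 6 of the 10 had too few counts for the filter, with DES at 0 in every library. Among those 6, PDGFRB had 6, 10 and 6 counts in the control and 1, 1 and 2 in the LHX2 libraries, and COL3A1 had 9, 7 and 8 against 2, 2 and 4. Both were thus lower without overlap, and in the fit without the filter PDGFRB passed (edgeR adjusted p = 0.037) and COL3A1 did not (adjusted p = 0.13). The rest of the 6 did not share this pattern. COL1A1 had 9, 8 and 4 counts in the control and 8, 10 and 10 in the LHX2 libraries, with overlap. LRAT had 1, 3 and 0 against 2, 0 and 3, and ACTA2 had 1 read, in LHX2 replicate 3. The share of low-count genes without overlap was not computed. Of 8 endothelial markers 1 was called lower, 4 were at 0 throughout, and their sum was 3.75 to 4.31 CPM in the controls and 2.78 to 3.22 CPM with LHX2. All 6 libraries came from the Huh7 line, so these markers are read here as transcripts of that line. A link between them and the HGF values was not tested.

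MST1 (Entrez 4485, chromosome 3, 49683947 to 49689474, minus strand) encodes MSP, and was the more abundant ligand gene. It had 514, 654 and 500 counts in the control and 328, 385 and 539 in the LHX2 libraries, or 15.8, 16.7 and 15.4 CPM against 10.9, 12.6 and 14.96 CPM. LHX2 replicate 3 lay just under the lowest control, and on CPM from library totals alone the groups overlapped. The log2 fold change was -0.31 ± 0.10 (SE, edgeR adjusted p = 0.027). The call was lost when control replicate 1 was left out (-0.32, adjusted p = 0.062), and likewise for control replicate 2 (-0.28, adjusted p = 0.10), LHX2 replicate 1 (-0.21, adjusted p = 0.11) and LHX2 replicate 2 (-0.30, adjusted p = 0.074). CPM from library totals gave -0.28 (adjusted p = 0.056).

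MST1 has 2 transcribed pseudogene copies on chromosome 1, MST1L (16757120 to 16764480) and MST1P2 (16645574 to 16650420). Of the 5927 different 50-base words in annotated MST1 transcripts, 19.4% also occur in transcripts of these copies, and how reads with several matches were counted is not stated, so that the split of reads among the 3 genes is uncertain. MST1L had 266, 291 and 238 counts in the control and 127, 153 and 177 in the LHX2 libraries, and its groups did not overlap. It fell by 0.69 ± 0.11 on the log2 scale (SE, edgeR adjusted p = 0.00015). MST1P2, with 513, 562 and 463 against 233, 374 and 396 counts, fell by 0.51 ± 0.12 (SE, edgeR adjusted p = 0.0055). Both calls held in all 15 other fits.

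The counts of MST1, MST1L and MST1P2 summed to 38.4 ± 1.37 CPM without and 27.9 ± 4.35 CPM with LHX2 (SD, n = 3), a log2 fold change of -0.46 ± 0.09 (SE, edgeR adjusted p = 0.0009). This sum kept its call with each library left out in turn, between -0.54 and -0.34. MST1 itself supplied 39.8%, 43.4% and 41.6% of the sum in the controls and 47.7%, 42.2% and 48.5% with LHX2, so the shares overlap. All 3 genes were called lower, and MST1 was the one whose call was lost in other fits. MST1 also shares its last bases with APEH, a gene on the opposite strand, which had 2255 to 3175 counts per library, and the strand setting of the counting is not given.

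**Figure D2:**
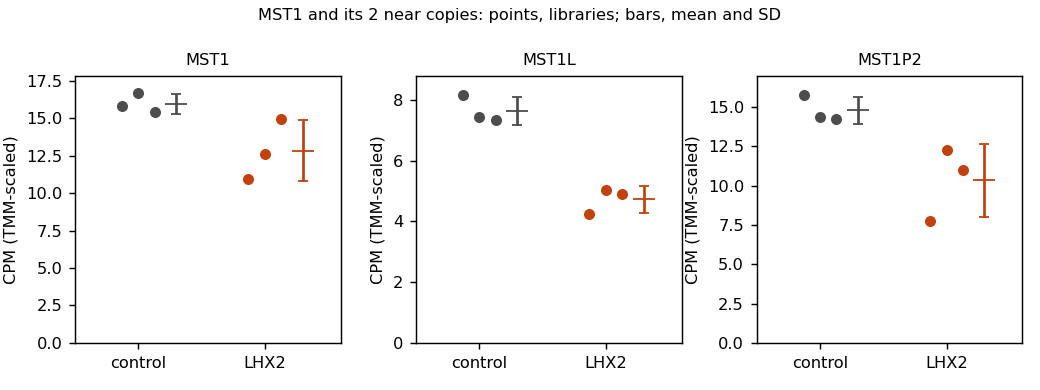
TMM-scaled CPM (vertical axes, linear, from 0) of MST1 and of its near copies MST1L and MST1P2 in the control and LHX2 libraries. Points are libraries, bars the mean and SD of 3 libraries. All 3 genes lie lower with LHX2, and LHX2 replicate 3 of MST1, at 14.96 CPM, comes closest to the controls.

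Transcripts of the activating proteases were scarce. HGFAC (Entrez 3083, chromosome 4, 3441005 to 3449486), the HGF activator, had 6, 5 and 3 counts in the control and 4, 6 and 6 in the LHX2 libraries. Its groups overlapped, and the ratio of summed counts was 1.26 with a counting interval of 0.576 to 2.78, so that a difference was not detectable at this depth. ST14 (Entrez 6768, chromosome 11, 130159782 to 130210362), which encodes matriptase, had 32, 59 and 27 counts against 23, 39 and 36, again with overlap. Its log2 fold change was -0.15 ± 0.27 (SE, edgeR adjusted p = 0.73).

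HPN (Entrez 3249, chromosome 19, 35040506 to 35066573), which encodes hepsin, had 25, 30 and 14 counts in the control and 10, 9 and 15 in the LHX2 libraries. The values of 0.768, 0.766 and 0.431 CPM lay above 0.333, 0.295 and 0.416 CPM, although control replicate 3 was close to LHX2 replicate 3 and the groups overlapped with library totals alone. The log2 fold change of -0.90 ± 0.34 (SE) did not pass (edgeR adjusted p = 0.053). It passed without control replicate 3 (-1.12, adjusted p = 0.024) and in a fit corrected for the length and GC content of transcripts (-0.96, adjusted p = 0.030). HPN-AS1, on the opposite strand, had 9 to 16 counts per library, and without the strand setting its reads cannot be told apart from those of HPN where the genes overlap.

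The inhibitor gene SPINT1 (Entrez 6692, chromosome 15, 40844048 to 40858207, plus strand), which encodes HAI-1, had 71, 88 and 91 counts in the control and 119, 105 and 121 in the LHX2 libraries. In CPM these were 2.18, 2.25 and 2.80 against 3.96, 3.45 and 3.36, with no overlap. SPINT1 rose 1.49-fold, by 0.57 ± 0.15 on the log2 scale (SE, edgeR adjusted p = 0.0076), and the call held in 15 of 15 other fits, between 0.49 and 0.69. SPINT1-AS1, an antisense gene at its start, had 0 to 5 counts per library. Its partner SPINT2 (Entrez 10653, chromosome 19, 38264573 to 38292615), which encodes HAI-2, had 8, 1 and 3 counts in the control and 0, 2 and 7 in the LHX2 libraries. The SPINT2 ratio of summed counts was 0.826, with a counting interval of 0.307 to 2.14, so that no difference was detectable. Per kb, SPINT1 had 1.73 to 3.90 times the level of ST14, whose product it inhibits, in the controls and 3.12 to 5.99 times with LHX2, and these ranges overlap.

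Ordered by level per kb in the control libraries, MET came first, followed by MST1 (3.84 ± 0.159 CPM per kb), SPINT1 (0.789 ± 0.112), ST14 (0.313 ± 0.0999), HPN (0.277 ± 0.0820), MST1R, HGFAC (0.0624 ± 0.0215), SPINT2 (0.0319 ± 0.0297) and HGF (0.0166 ± 0.0124; all SD, n = 3). In this order the values of ST14 and HPN overlapped between libraries, as did neighbours among the last 4 genes. The order was the same in the LHX2 libraries, where HPN overlapped with MST1R, and SPINT2, at 0 in 1 library, overlapped with HGF, at 0 in all 3. With the median instead of the longest transcript length MET, MST1, SPINT1 and ST14 kept ranks 1 to 4 in both groups, and the order of the others changed.

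**Figure D3:**
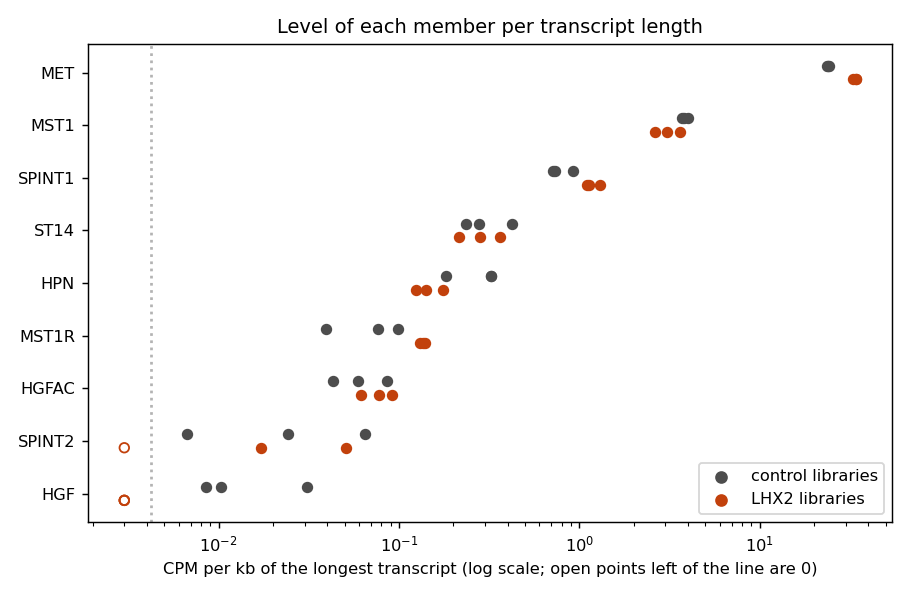
Level of each gene in CPM per kb of its longest transcript (horizontal axis, log scale), with control libraries in grey and LHX2 libraries in orange. Each point is a library, and open points to the left of the dotted line are 0. MET lies at 23.9 CPM per kb on average in the controls, and HGFAC, SPINT2 and HGF lie below 0.1.

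**Figure D4:**
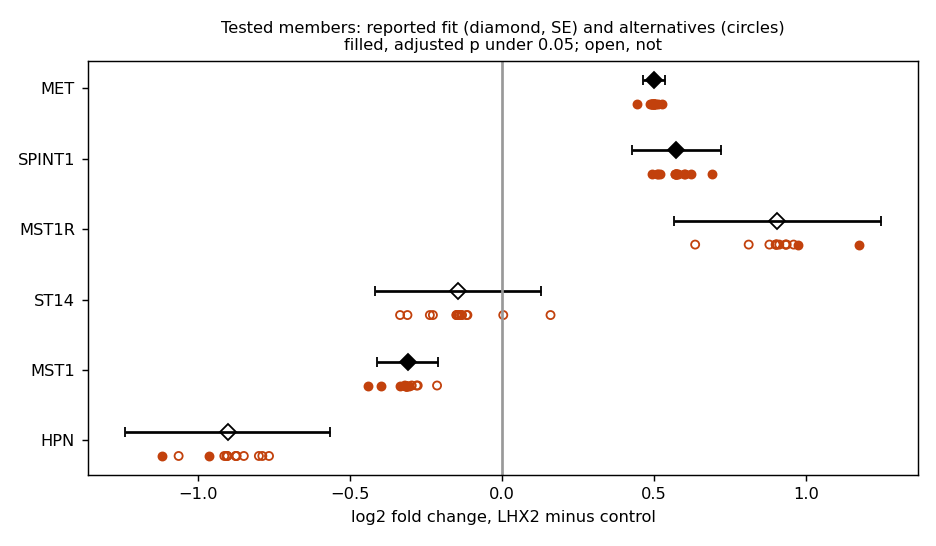
Log2 fold change, LHX2 minus control (horizontal axis), of the 6 tested genes. Diamonds give the reported fit with its SE, circles the other fits, and filled symbols have an adjusted p under 0.05. MET and SPINT1 stay filled throughout, MST1 is open in 5 fits, MST1R is filled in 3 and HPN in 2.

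Other proteases that act on these ligands, their activators or their receptors changed in both directions. Of 19 such genes 11 could be tested, and 6 were higher, 2 lower and 3 not called, with a median log2 fold change of 0.19. These and the following counts stand beside 16.6% higher, 15.8% lower and a median of 0.01 among all tested genes. HABP2, a plasma protease that binds hyaluronan, had 105 ± 3.59 CPM in the controls and 329 ± 24.3 CPM with LHX2 (SD, n = 3), a 3.14-fold rise (edgeR adjusted p = 8.3e-12). F12, the zymogen of coagulation factor XIIa, which can activate HGF, rose 1.69-fold, and TMPRSS6, matriptase-2, rose 1.91-fold from a mean of 0.944 CPM. PLAU, the urokinase gene, whose product can also cut HGF, had 282, 341 and 251 counts in the control and 49, 56 and 90 in the LHX2 libraries and was 4.16-fold lower (edgeR adjusted p = 4.8e-08). PLG, plasminogen, was called lower (-0.68 ± 0.23, SE, edgeR adjusted p = 0.032). That call was lost in 6 of 15 other fits, among them those without control replicate 2 (adjusted p = 0.16), control replicate 3 (0.061), LHX2 replicate 1 (0.079) or LHX2 replicate 2 (0.083), with DESeq2 (0.089) and with the replicate number as a block (0.065).

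Inhibitors of these proteases were evenly divided, with 3 higher, 3 lower and 1 not called among 7 tested of 10, and a median of -0.14. SERPINA5, the protein C inhibitor, which also inhibits HGF activator, rose 1.39-fold from 389 ± 13.1 CPM, and SERPING1, the C1 inhibitor, rose 1.68-fold. SERPINC1, antithrombin, fell by 0.41 on the log2 scale, and TIMP3, an inhibitor of metalloproteases that shed receptor ectodomains, fell from 17.5 ± 0.413 to 9.62 ± 0.729 CPM (SD, n = 3).

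Differences in the adaptors and effectors of the receptors were small. Of 28 genes 27 were tested, 11 were higher, 1 was lower and 15 were not called, with a median of 0.06. The 4 with the largest changes were AKT1 (log2 fold change 0.37), PAK1 (0.32), PXN, which encodes paxillin (0.29), and the SRC kinase gene (0.28). Corrected for length and GC content, 7 were higher and 4 lower, with AKT1 at 0.18 and PXN at 0.17. GAB1, the docking protein that binds MET directly, differed by -0.13 ± 0.07 and GRB2 by 0.06 ± 0.04 (SE), and neither passed (edgeR adjusted p = 0.21 and 0.26).

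Genes listed as negative regulators of MET moved both ways, with 5 higher, 4 lower and 8 not called among 17 tested of 21, and a median of -0.03. Those called lower were LRIG3 and SPSB1 (log2 fold change -0.30 each), LRIG1 (-0.26) and PTPN2 (-0.18). ERRFI1, an adaptor that inhibits ERBB receptors and that also binds GRB2, rose 1.82-fold to 339 ± 7.43 CPM. CBLB, a ubiquitin ligase related to CBL, rose 1.35-fold, and PTPRB, a receptor phosphatase, rose 2.12-fold from a mean of 0.746 CPM. SOCS3 was called higher (0.92 ± 0.26, SE, edgeR adjusted p = 0.015), but not without control replicate 1 (adjusted p = 0.053), control replicate 2 (0.086) or LHX2 replicate 1 (0.055). Without control replicate 1 or 2 the number called lower was 2.

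Among 17 tested surface partners of 19, 8 were higher, 1 was lower and 8 were not called, with a median of 0.11. NRP2 and NRP1, the neuropilin co-receptors, rose by 1.04 and 0.59 on the log2 scale, NRP1 from 184 ± 7.08 to 276 ± 12.1 CPM (SD, n = 3). ERBB2 rose 1.34-fold, and LRP1, an endocytic receptor, rose by 0.49 on the log2 scale, or by 0.22 when corrected for length and GC content. ITGA6, integrin alpha-6, was the member that fell (-0.20).

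Of 16 factors linked to MET transcription 14 were tested, with 5 higher, 1 lower and 8 not called, and a median of 0.07. JUN, an AP-1 subunit, rose 1.58-fold, from 23.1 ± 2.37 to 36.5 ± 0.553 CPM (SD, n = 3), SMAD3 rose by 0.23 and SP1 by 0.19 on the log2 scale, and YBX1 fell from 926 ± 19.1 to 715 ± 41.2 CPM. Corrected for length and GC content, SP1 stood at 0.11. The number called higher was 3 when LHX2 replicate 1 or either of control replicates 1 and 2 was left out.

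Of 24 genes known to be induced by HGF in various cells 16 were tested, with 8 higher, 1 lower and 7 not called, and a median of 0.30. VEGFA rose 1.78-fold, from 43.1 ± 1.87 to 76.7 ± 5.26 CPM (SD, n = 3), and CXCL8, interleukin-8, rose 1.61-fold. SPINT1 and PLAU, described above, belong to this list too, and PLAU was the gene that fell. The number called lower was 2 without control replicate 3 or LHX2 replicate 1. The lists share genes with each other, and no set of them was tested as a whole.

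**Figure D5:**
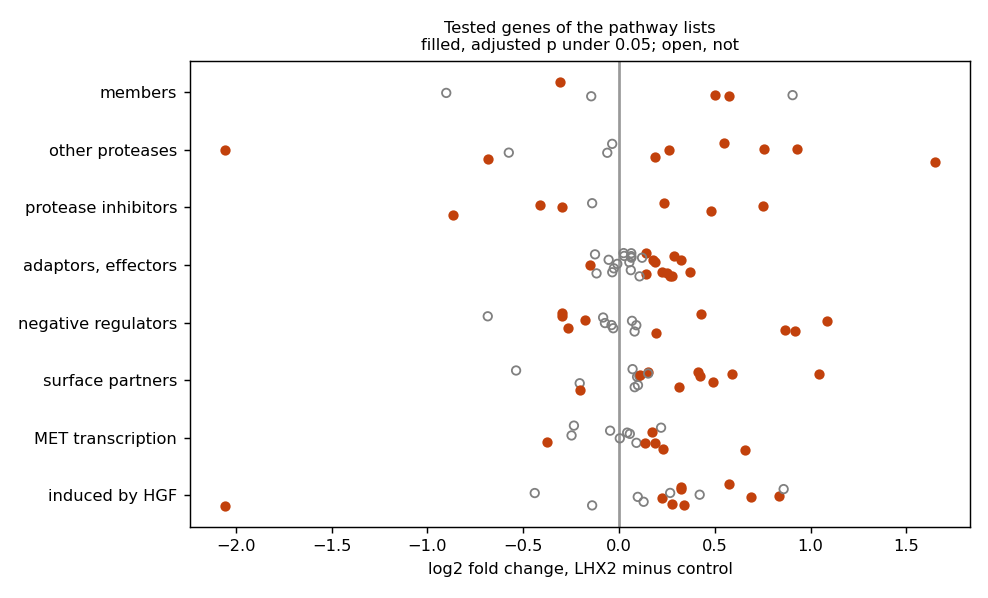
Log2 fold change, LHX2 minus control (horizontal axis), of every tested gene of the members and of 7 pathway lists (rows, with vertical scatter for legibility). Each circle is a gene, filled where the adjusted p is under 0.05. The leftmost point, in 2 rows, is PLAU at -2.06, and the rightmost is HABP2 at 1.65.

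The genes most like MET over the 6 libraries were sought among the 10382 tested genes whose mean reached 5 CPM. PDZD8 (Pearson r = 0.9998), PROM1 (0.9997), LIPC (0.9995), REXO5 (0.9994) and STK39 (0.9994) had the highest correlations of log2 CPM with MET. Of the 10382 genes 865 had an r over 0.95. Among the members r with MET was 0.92 for SPINT1, 0.79 for MST1R, -0.15 for ST14, -0.80 for MST1 and -0.83 for HPN, as a description over 6 libraries that share the same group difference.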

How the data were processed

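Polyadenylated RNA of 6 Huh7 libraries was sequenced. Per the labels' protocols, total RNA from a NucleoSpin kit went into TruSeq stranded mRNA libraries. The deposited values were raw read counts per gene, whole numbers without normalization. Per the submitters' processing notes, which give no order, the tools included featureCounts 2.0.0, TopHat2 2.1.1, SAMtools 1.9 and Bowtie2 2.3.5.1, and the build was GRCh38. Their gene annotation, strand setting and treatment of multi-mapped reads are not stated. A control column named in another form was taken as control replicate 1 by its final number.

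Genes with few reads were dropped by filterByExpr of edgeR (min.prop 0.7, min.count 10, min.total.count 15), libraries were scaled with TMM factors (0.985 to 1.02), and LHX2 was set against control in edgeR's quasi-likelihood F-test, and the model held no other term. Benjamini-Hochberg adjustment covered every tested gene, with a threshold of 0.05. Standard errors were derived from the F statistic. Positions came from RefSeq (GRCh38.p14), transcript lengths and GC content from GENCODE release 29, found for 26905 of 28265 genes. The alternatives were other scalings and filters, DESeq2, limma-voom, a replicate block, removal of a loess trend (span 0.3) with length and GC content, each library left out, median transcript lengths, and CPM on library totals. Fits without a filter and with a library left out, and the summed MST1 counts, were added after the data were seen. Exact binomial intervals, at 95%, cover counting error only (the reads carry no molecular identifiers). The floor of 3 counts, used for HGF, covers counting error in the LHX2 group only.

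The members and lists were chosen with earlier results of these data known. Named genes were LHX2, all members, up to 4 called genes of each list in order of the size of their change, and the 5 genes most correlated with MET. EGFR, ERBB3, GAB1, GRB2, ITGA6, COL1A2, LUM, PDGFRA, PDGFRB, COL3A1, RGS5, DES, AFP, CFTR, APEH, HPN-AS1, SPINT1-AS1, SEMA3A and STK4 were named after their values were seen. So were COL1A1, LRAT, ACTA2, KRT7, KRT19, EPCAM, MUC1, AQP1, LYZ, CD68, PTPRC, LRIG1, LRIG3, PTPN2 and SPSB1. On simulated data for this comparison with 14533 genes, the test recovered 22 of 50 genes with a 1.2-fold change, 44 of 50 at 1.5-fold, 45 of 50 at 2-fold and 49 of 50 at 4-fold, and it called 10 of 14333 genes without a change. The share of genes changed there was far below the 32.5% called in the data. The adjusted p depends on that share, so these numbers do not measure the sensitivity of the reported fit. Versions were edgeR 4.0.16, DESeq2 1.42.0 and limma 3.58.1 under R 4.3.3, and pandas 2.3.3 and matplotlib 3.10.9 under Python 3.11.15.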

Additional observations from a re-analysis of the deposited data

How the results depend on the processing

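The count of members called higher was 2 or 3 under every alternative run. The count called lower, 1 in the reported fit, was 0 with library totals alone, 2 when low counts were not filtered, 2 in the fit corrected for length and GC content, and between 0 and 2 when a library was left out. Of 41 results for single genes, 35 kept their call under every alternative that could be run for them, and the exceptions were HGF, MST1, MST1R, HPN, PLG and SOCS3, whose values stand beside the results, except that MST1R also passed with library totals alone (0.93, adjusted p = 0.050). ST14 ranged from -0.33 to 0.16 and did not pass in any fit. With the 1 CPM filter MST1R and HPN were not tested. In the pathway lists the count of other proteases called lower was 1 instead of 2 with DESeq2, with the replicate block and without control replicate 2 or 3 or LHX2 replicate 1 or 2. Adaptors called lower numbered 0 without control replicate 2 and 2 without LHX2 replicate 1, factors of MET transcription called higher numbered 3 with the replicate block, and corrected for length and GC content 2 of the latter were lower. HGF-induced genes called lower numbered 2 without a filter and with that correction.

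The replicate numbers did not pair the libraries: deviations from the group means of same-numbered libraries correlated at -0.0555, -0.0735 and -0.195 over 14533 genes, and no library correlated best with its own number. With the replicate block 3768 genes were called instead of 4716, the members called were the same in number (2 higher, 1 lower), and MET stood at 0.50 (edgeR adjusted p = 2.2e-05). At this depth 10 counts corresponded to about 0.305 CPM in the median library, and HGF, HGFAC and SPINT2, which lay below it, were compared by their summed counts and in the fit without a filter, where HGFAC (0.29, edgeR adjusted p = 0.81) and SPINT2 (-0.33, adjusted p = 0.83) did not pass.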

Other observations

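Genes related to the members by sequence or name were also measured, and of 7 tested of 8 on that list 2 were higher, 3 (PLG, MST1L and MST1P2) lower and 2 not called, with a median log2 fold change of -0.14. SEMA3A and SEMA3C, secreted semaphorins that share the sema fold with MET and RON and signal through neuropilins, rose by 0.34 and 0.69 on the log2 scale (edgeR adjusted p = 5.5e-05 and 0.0077), SEMA3C from a mean of 1.38 to 2.23 CPM. STK4, a Hippo pathway kinase that is also called MST1, had 3004, 3793 and 3268 counts in the control and 2813, 2976 and 3451 in the LHX2 libraries, and its groups overlapped (log2 fold change -0.01, edgeR adjusted p = 0.84).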
